A study of Mus musculus with 6 samples.

Results

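The subject is the Wnt signalling gene family in the mouse temporomandibular joint (TMJ), the joint between the lower jaw and the temporal bone: Wnt ligands, their receptors, secreted antagonists, R-spondins, intracellular feedback proteins and the TCF/LEF transcription factors. Members were taken by a rule on gene symbols and not by their values, although earlier results of these data were known. The symbol rule matched 57 of the 22032 genes in the deposited count table. Of these, 47 had enough counts to be tested.

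mRNA was sequenced in bulk from TMJ tissue of Igf2bp2-KO mice (knockout, KO, 3 libraries) and of their wild-type littermates (Igf2bp2-WT, WT, 3 libraries), all aged 10 weeks. The deleted gene encodes a reader of m6A-marked mRNA, and the study's title concerns bone loss beneath the joint cartilage, so the comparison asks how the joint's transcripts differ without it. The labels name no strain and no deleted exon, and do not say whether each library came from 1 animal. In the median gene the spread between KO 1 and KO 3 was under that of sampling read pairs (variance ratio 0.941), and so was that between WT 2 and WT 3 (0.964). The libraries of each such pair were added up and stand for 1 sample, leaving n = 2 per group (KO 1+3 and KO 2, WT 1 and WT 2+3). P-values therefore measure the spread between these samples only, which may be technical. The summing rests on the variance ratios, which assume 2 counts per read pair.

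Total counts were 31813171 to 35094127 per KO library and 28551236 to 33935022 per WT library. Mitochondrial transcripts took 85.3% to 86.0% of them in KO and 90.6% to 90.8% in WT, which left 4604575 to 4899680 counts on nuclear genes in KO and 2625472 to 3205190 in WT. Igf2bp2 itself had 13, 14 and 10 counts in KO 1 to 3, against 38, 20 and 24 in WT 1 to 3, so KO libraries kept some counts (log2 fold change -1.80, edgeR FDR 0.00589). The labelled tissue was only in part reflected by its markers. Cartilage genes were low, with Col2a1 at 1.25 CPM in KO and 1.47 CPM in WT, while the enamel gene Amelx had 262 CPM in KO and 883 CPM in WT and the muscle gene Ckm 1178 CPM in KO and 856 CPM in WT. Levels below are in CPM, counts scaled to a common library size with the TMM factors of edgeR (trimmed mean of M-values).

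Wnt proteins are secreted, lipid-modified ligands that bind Frizzled receptors together with the co-receptors LRP5 and LRP6. Binding stops a cytoplasmic complex built on AXIN from degrading beta-catenin, the product of Ctnnb1, which then enters the nucleus and activates genes through TCF/LEF factors. SFRP, WIF1 and DKK proteins block the ligand or the co-receptor outside the cell. R-spondins act through LGR receptors to remove the ligases ZNRF3 and RNF43, which otherwise clear Frizzled from the surface. In bone the pathway is known for driving osteoblast formation and for restraining osteoclasts, and human LRP5 variants change bone mass.

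Of the 47 tested members, 11 passed the test of KO against WT, 4 of them higher in KO and 7 lower (edgeR quasi-likelihood test with Benjamini-Hochberg adjustment over all genes, false discovery rate, FDR, under 0.05). That is 23.4% of the members tested, beside 17.6% of all 14632 tested genes, and beside 9.15% of all genes higher and 8.48% lower. The members' share lies near that background and was not tested against it. The higher members were Lrp5, Fzd6, Rspo4 and Rspo2, and the lower ones Ctnnb1, Nkd1, Nkd2, Rspo1, Sfrp2, Sfrp5 and Wnt7a. The median log2 fold change was -0.10 over the members and -0.01 over all tested genes. In 5 members every KO library lay above every WT library and in 13 every KO library lay below, beside 19.2% and 19.1% of all tested genes. Rspo2, Wnt7a and Wnt10b passed the filter on low counts through 1 group alone and so had to differ, and 9 of the other 44 members were called, 3 higher and 6 lower. In bulk tissue fewer cells of a type and less RNA per cell cannot be told apart. Without KO 2 only 3 members were called (2 higher, 1 lower), without WT 1 only 5, and by the DESeq2 Wald test 6. Leaving out KO 2 or WT 1 left that group with 1 sample, which is assumed to vary like those of the other group, so a call lost there, as with the genes below, does not show a weaker effect. Directions depend on whether libraries are scaled: 51.9% of all calls were higher in KO after TMM scaling, against 95% on total counts with no scaling factor. In that setting 13 members were higher and only Rspo1 lower, and the median of all genes stood at 0.54. Those totals include the mitochondrial counts, which took a larger share in WT. DESeq2 size factors and a fit without mitochondrial genes each called the same 11 members as TMM scaling, 4 higher and 7 lower.

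**Figure D1:**
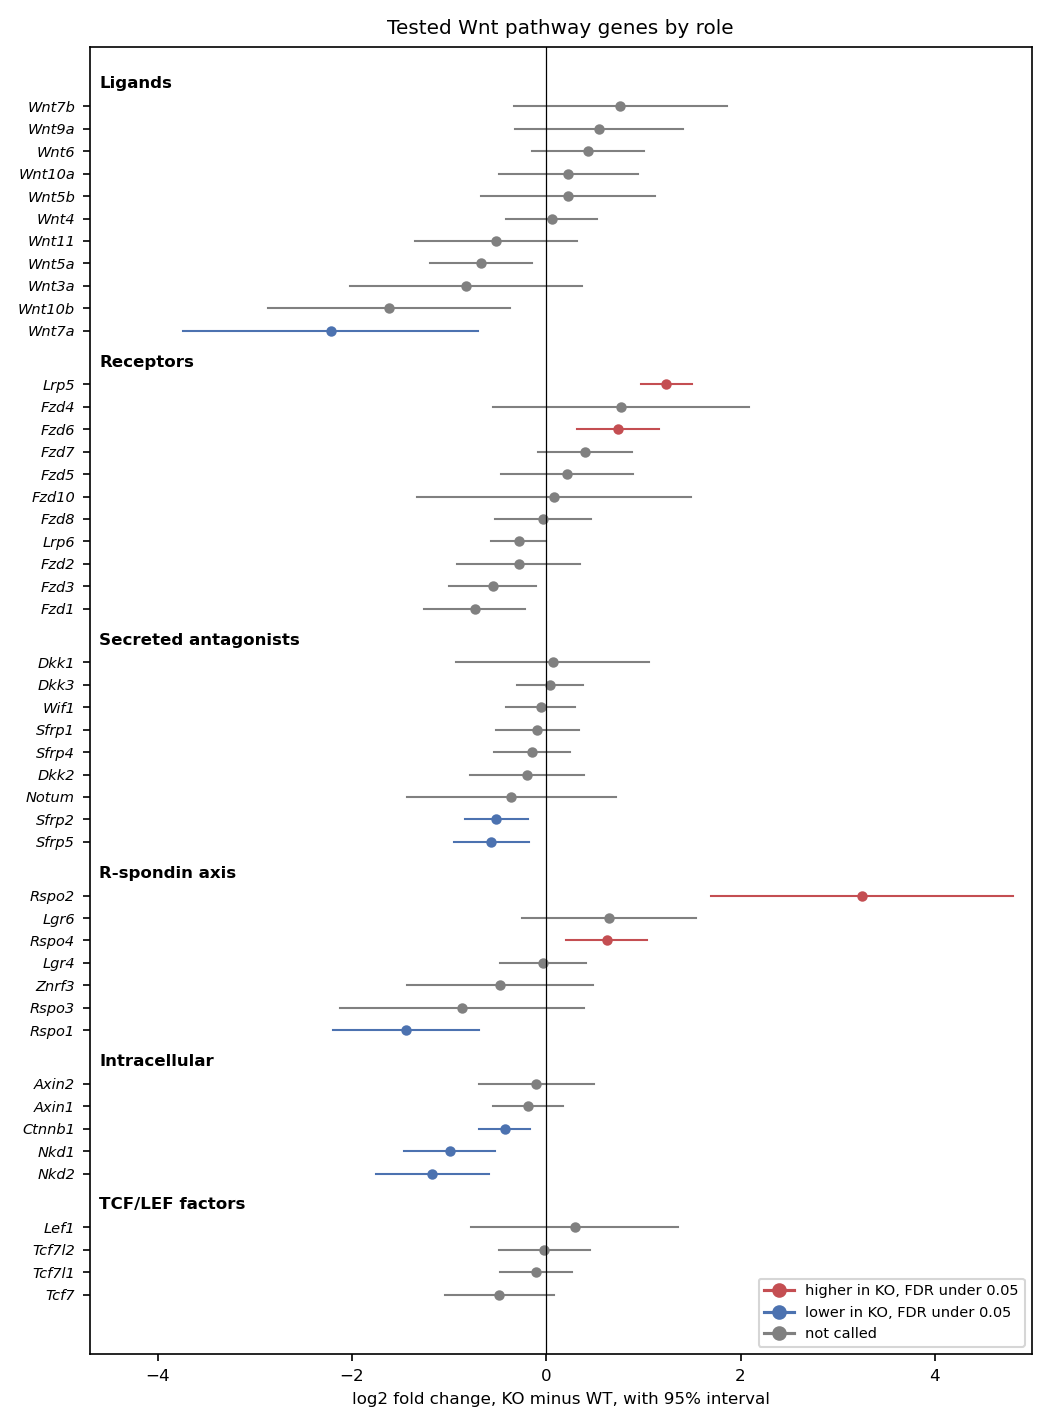
Log2 fold change (KO minus WT, x axis) with its 95% interval for the 47 tested members, grouped by role, with members higher in KO in red, lower in blue and not called in grey. The longest distances from 0 are those of Rspo2 at 3.25 and Wnt7a at -2.22, both with wide intervals, while Lrp5 at 1.24 has a narrow one.

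**Figure D2:**
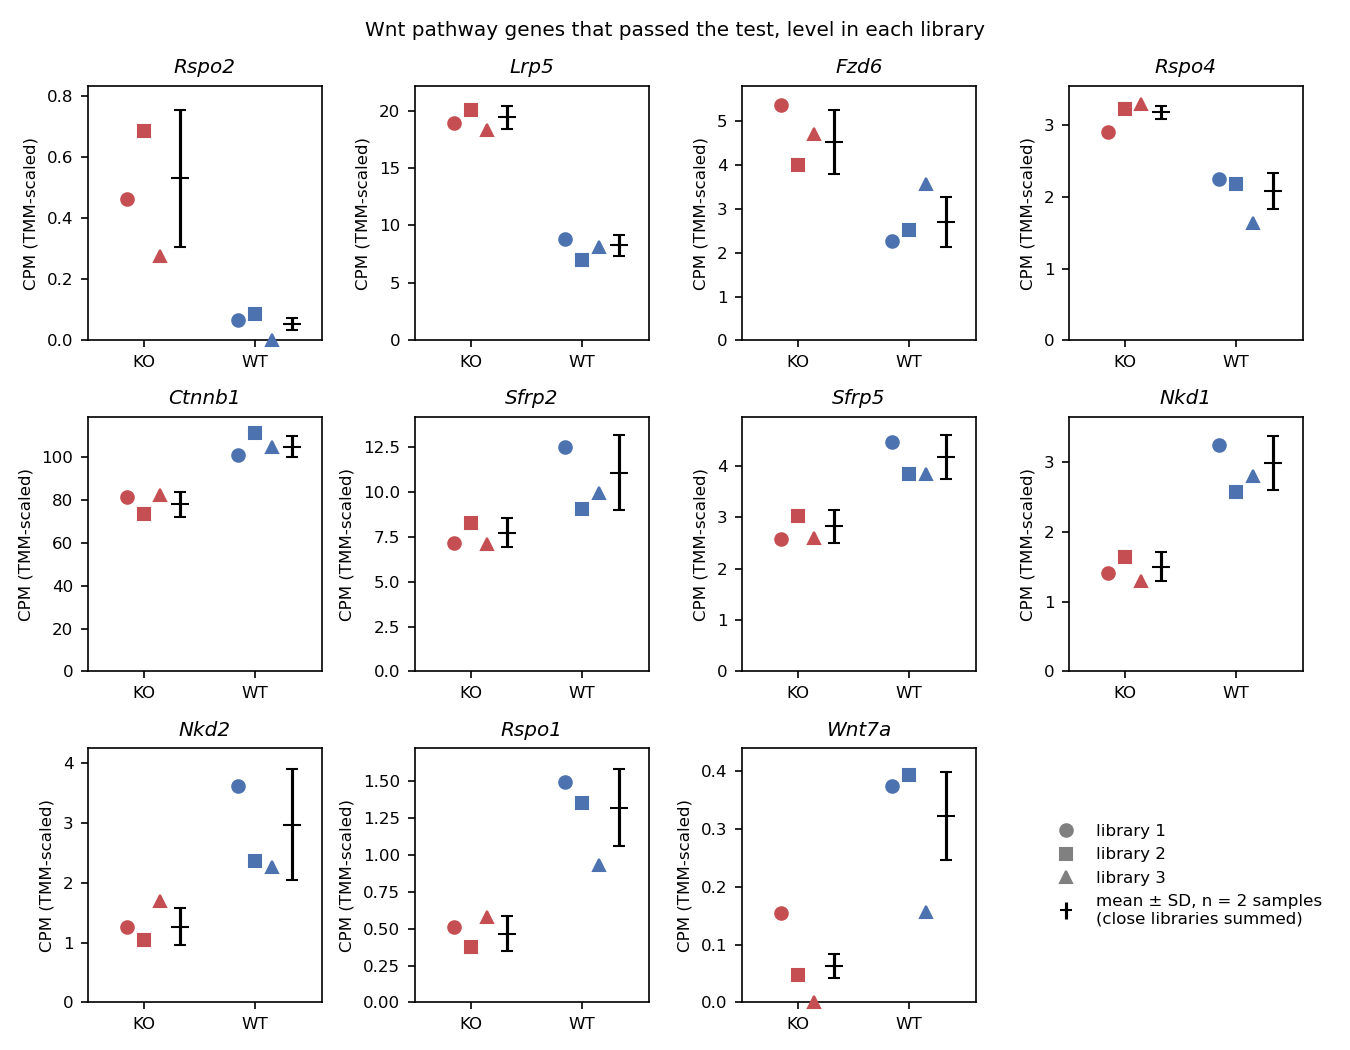
Level in CPM (y axis, from 0) of the 11 called members in each library, KO left of WT, with the mean ± SD of the 2 samples per group in black. In each panel the KO libraries lie wholly above or wholly below the WT libraries.

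Among the receptors, Lrp5 rose in KO and its partner Lrp6 did not. LRP5 and LRP6 are the single-pass co-receptors that Wnt brings together with Frizzled. Lrp5 had 18.9, 20.0 and 18.3 CPM in KO 1 to 3, against 8.85, 7.02 and 8.12 CPM in WT 1 to 3. All KO libraries lay far above the highest WT library, with no overlap. The mean was 19.4 ± 0.990 CPM in KO, against 8.27 ± 0.885 CPM in WT (mean ± SD, n = 2 each), a 2.36-fold higher level (log2 fold change 1.24, SE 0.12, edgeR FDR 1.26e-05). It passed under each of its 14 alternative settings, with edgeR and DESeq2 FDR values of at most 0.00117. Lrp6 had 6.86, 6.47 and 5.87 CPM in KO 1 to 3, against 7.76, 7.11 and 8.43 CPM in WT 1 to 3. Its KO libraries lay below the WT libraries, but the difference of -0.28 (95% interval -0.57 to 0.00, edgeR FDR 0.171) did not pass and turned to 0.27 on unscaled total counts.

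The balance between the co-receptors does not depend on how libraries are scaled. Lrp5 made up 73.4%, 75.6% and 75.8% of the summed Lrp5 and Lrp6 counts in KO 1 to 3, against 53.3%, 49.7% and 49.1% in WT 1 to 3. The exact (Clopper-Pearson) 95% intervals, taken on read pairs at 2 counts each, ran from 69.2% at the lowest in KO and to 59.7% at the highest in WT, and cover counting error only. The share was picked after the values of both genes had been seen and is given without a test.

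**Figure D3:**
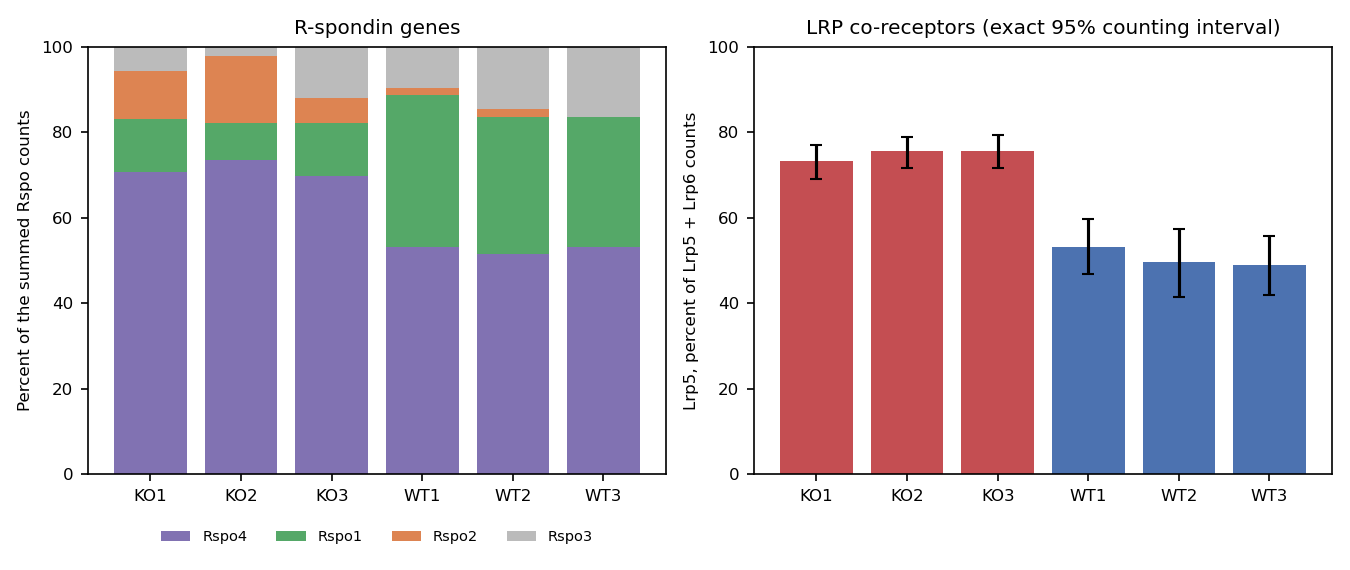
Left, share of the summed Rspo1 to Rspo4 counts (percent) held by each gene in each library, and right, Lrp5 as percent of Lrp5 plus Lrp6 counts with exact 95% counting intervals. In the KO libraries Rspo4 holds 69.9% to 73.5% and Lrp5 73.4% to 75.8%, and in the WT libraries 51.5% to 53.2% and 49.1% to 53.3%.

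Of the 9 Frizzled receptors tested 1 passed, Fzd6, beside 17.6% of all tested genes called. FZD6 is known mainly for planar cell polarity and for hair and nail formation. Fzd6 had 5.37, 4.01 and 4.70 CPM in KO 1 to 3, against 2.28, 2.53 and 3.57 CPM in WT 1 to 3. The KO libraries were higher with no overlap, although WT 3 came close to KO 2. The mean was 4.54 ± 0.731 CPM in KO, against 2.70 ± 0.570 CPM in WT (mean ± SD, n = 2 each), a log2 fold change of 0.74 with an SE of 0.19 (edgeR FDR 0.0178). Its call was lost without WT 1 (edgeR FDR 0.0697), without WT 2 (0.0724) and in the DESeq2 Wald test (0.0614).

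Fzd1, a receptor found on osteoblast-lineage cells, was just outside the threshold. It had 1.196 ± 0.210 CPM in KO, against 2.02 ± 0.0964 CPM in WT (mean ± SD, n = 2 each), a log2 fold change of -0.74 (edgeR FDR 0.0507), and every KO library lay below the WT libraries. It passed without KO 1 (edgeR FDR 0.0354) and with the 6 libraries kept apart (0.0209). Fzd3 had -0.55 (edgeR FDR 0.088), and -0.77 without WT 2 (edgeR FDR 0.0421), and Fzd7 0.40 (edgeR FDR 0.262). Fzd2, Fzd5, Fzd8 and Fzd10 had log2 fold changes between -0.29 and 0.21 with edgeR FDR values of at least 0.573. Fzd9 had at most 5 counts in a library and was not tested.

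Fzd4, the receptor of norrin in the vasculature of the eye, had the highest mean level among the receptors and disagreed within both groups. Its counts were 106, 1235 and 1127 in KO 1 to 3, against 454, 68 and 460 in WT 1 to 3. In CPM these are 2.72, 29.3 and 28.5 in KO, against 15.5, 2.97 and 17.9 in WT. KO 1 and WT 2 were each low, although KO 1 matches KO 3 and WT 2 matches WT 3 in the median gene. Its variance ratio was 414.8 between KO 1 and KO 3 and 122.9 between WT 2 and WT 3, the highest of 13939 and of 12986 genes compared. No other member exceeded 7.37. The log2 fold change was 0.77 (95% interval -0.54 to 2.09, edgeR FDR 0.358), and 1.14 without KO 1 (edgeR FDR 0.000216). In a RefSeq annotation of another build (GRCm38.p6) the span of Fzd4 overlaps that of Tmem135. Tmem135 had 104, 123 and 145 counts in KO 1 to 3, against 49, 58 and 75 in WT 1 to 3. In GENCODE M21 Fzd4 is not among the 12 members whose exons overlap those of another gene. The part of the span overlap in the Fzd4 counts was not tested.

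**Figure D4:**
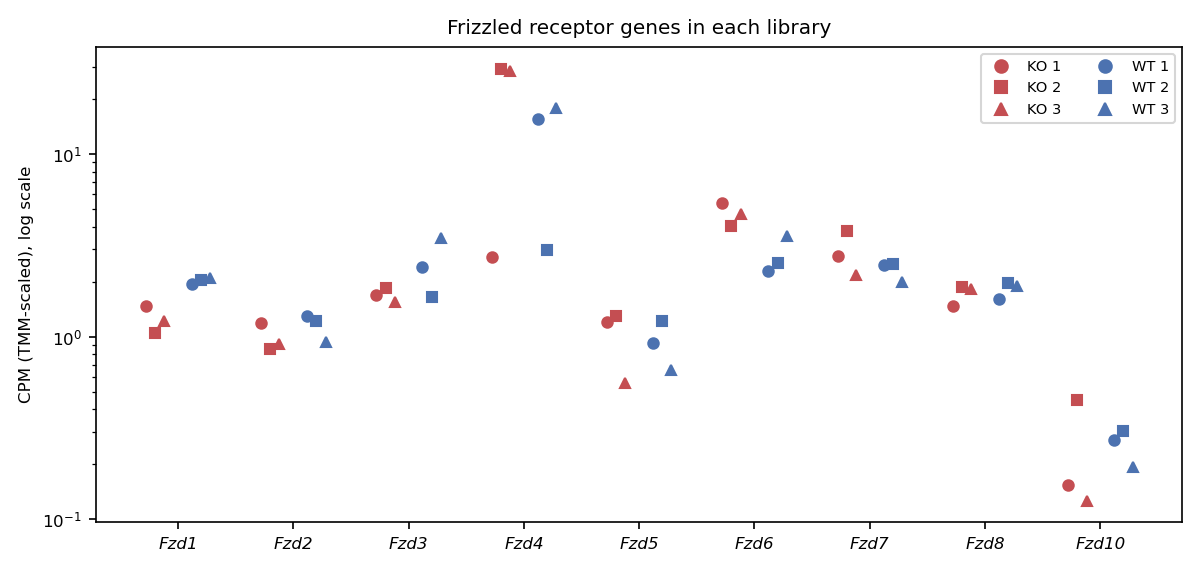
Level in CPM (y axis, log scale) of 9 Frizzled genes in each library, KO in red left of WT in blue. Fzd4 splits within both groups, with KO 1 at 2.72 and WT 2 at 2.97 CPM far under the other libraries, and Fzd6 is the gene whose KO libraries lie above its WT libraries.

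The R-spondin genes moved in both directions. R-spondins strengthen Wnt signalling by clearing the ligases that remove Frizzled receptors. Rspo4, known for nail formation, was the most abundant gene of this axis per kilobase of longest transcript (1.34 CPM per kilobase in KO, 0.877 in WT), with 2.90, 3.22 and 3.29 CPM in KO 1 to 3, against 2.25, 2.18 and 1.63 CPM in WT 1 to 3. All KO libraries were higher. The mean was 3.18 ± 0.0896 CPM in KO, against 2.08 ± 0.253 CPM in WT (mean ± SD, n = 2 each), a log2 fold change of 0.62 with an SE of 0.19 (edgeR FDR 0.0406). The call was lost without KO 2 (edgeR FDR 0.219), without KO 3 (0.078), without WT 3 (0.106) and in the DESeq2 Wald test (0.207).

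Rspo1 fell. It had 0.514, 0.379 and 0.582 CPM in KO 1 to 3, against 1.498, 1.35 and 0.932 CPM in WT 1 to 3. The highest KO library was under the lowest WT library. Its log2 fold change was -1.44 (SE 0.35, edgeR FDR 0.0112), or 2.72-fold lower in KO, and the call was lost without KO 2 (edgeR FDR 0.106) or WT 1 (0.0586).

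Rspo2, which in mice is needed for limb, lung and craniofacial development, was higher in KO and close to absent in WT. It had 18, 29 and 11 counts in KO 1 to 3, against 2, 2 and 0 in WT 1 to 3. In KO it averaged 0.531 ± 0.226 CPM and in WT 0.0549 ± 0.0192 CPM (mean ± SD, n = 2 each). The log2 fold change was 3.25 (SE 0.72, edgeR FDR 0.00644), and it was 2.78 without KO 2, where the call was lost (edgeR FDR 0.151). The WT group held 4 counts in all, and Rspo2 passed the filter on low counts through KO alone and so had to differ. Rspo3 had 9, 4 and 22 counts in KO 1 to 3, against 12, 14 and 13 in WT 1 to 3, and did not pass (edgeR FDR 0.355).

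Within the 4 R-spondin genes the make-up differed, which again does not depend on library scaling. Rspo4 held 70.6%, 73.5% and 69.9% of their summed counts in KO 1 to 3, against 53.2%, 51.5% and 53.2% in WT 1 to 3. Rspo1 held 12.5%, 8.65% and 12.4% in KO 1 to 3, against 35.5%, 32.0% and 30.4% in WT 1 to 3. The summed Rspo counts were small, 160 to 186 per KO library and 79 to 124 per WT library, and the shares were chosen after these values were seen, so they carry no test.

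Of the 3 R-spondin receptors and ligases tested, 0 were called by edgeR, beside 17.6% of all tested genes, and 0 by the DESeq2 Wald test. Of them 0 had an unadjusted p under 0.05. With 3 genes, 0 calls cannot be told from the share of all genes. Lgr4, the most widely expressed LGR receptor, averaged 2.23 ± 0.287 CPM in KO, against 2.26 ± 0.135 CPM in WT (mean ± SD, n = 2 each), a difference of -0.03 (95% interval -0.48 to 0.41, edgeR FDR 0.945). Lgr6 had 13, 41 and 31 counts in KO 1 to 3, against 14, 5 and 18 in WT 1 to 3 (edgeR FDR 0.327). Znrf3 had 10, 12 and 35 counts in KO 1 to 3, against 20, 18 and 10 in WT 1 to 3 (edgeR FDR 0.527). Lgr5, a stem cell marker, and Rnf43 had at most 8 counts in a library and were not tested.

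Inside the cell, Ctnnb1 and both Naked cuticle genes were lower in KO and both Axin genes were not called. NKD1 and NKD2 bind Dishevelled and dampen Wnt signalling, and Nkd1 is itself a known beta-catenin target. Nkd1 had 1.41, 1.63 and 1.29 CPM in KO 1 to 3, against 3.24, 2.57 and 2.80 CPM in WT 1 to 3. The groups were far apart, with no overlap. The mean was 1.50 ± 0.202 CPM in KO, against 2.98 ± 0.385 CPM in WT (mean ± SD, n = 2 each), a log2 fold change of -0.99 with an SE of 0.22 (edgeR FDR 0.00558), and the call held under each of its 14 alternative settings but not on unscaled total counts (-0.45, edgeR FDR 0.114). Nkd2 had 1.26, 1.04 and 1.69 CPM in KO 1 to 3, against 3.61, 2.35 and 2.25 CPM in WT 1 to 3. WT 1 was the highest library. The log2 fold change was -1.17 (SE 0.27, edgeR FDR 0.00855), with the call lost without KO 2 (edgeR FDR 0.0872) or WT 1 (0.0653).

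Ctnnb1, which encodes beta-catenin itself, was by far the most abundant member, at 21.5 CPM per kilobase of its longest transcript in KO and 28.9 in WT. It had 81.2, 73.3 and 82.3 CPM in KO 1 to 3, against 101, 111 and 105 CPM in WT 1 to 3. Every KO library was lower. The mean was 77.9 ± 6.00 CPM in KO, against 105 ± 4.93 CPM in WT (mean ± SD, n = 2 each), a log2 fold change of -0.43 with an SE of 0.12 (edgeR FDR 0.026), and the call was lost without KO 2 (edgeR FDR 0.44). This direction rests on the scaling: the raw counts were 3160, 3094 and 3256 in KO 1 to 3, against 2961, 2548 and 2693 in WT 1 to 3. On total counts with no scaling factor Ctnnb1 was at 0.12, while over its 14 alternative settings it ran from -0.46 to -0.35. Its exons overlap those of Ulk4 on the opposite strand in GENCODE M21, and without the strand setting their reads cannot be told apart.

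Axin2, the most widely used transcriptional readout of beta-catenin signalling, was not called. It had 1.26, 1.71 and 1.59 CPM in KO 1 to 3, against 2.15, 1.13 and 1.40 CPM in WT 1 to 3. The groups overlapped fully. The log2 fold change was -0.10 (95% interval -0.70 to 0.49, edgeR FDR 0.855) and turned to 0.30 without WT 1 and to 0.44 on unscaled total counts. Axin1, the scaffold of the degradation complex, averaged 4.41 ± 0.00891 CPM in KO, against 5.07 ± 0.914 CPM in WT (mean ± SD, n = 2 each), a difference of -0.19 (edgeR FDR 0.509).

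Since Nkd1 and Nkd2 fell together, the 250 bases before their RefSeq transcription starts (GRCm38.p6) are shown beside those of Dkk1, another known beta-catenin target, which was not called. The Nkd1 stretch is chr8:88527383-88527632 on the plus strand, the Nkd2 stretch chr13:73847632-73847881 on the minus strand and the Dkk1 stretch chr19:30549497-30549746 on the minus strand. Capitals mark the letters CTTTGAA, the variant CTTTGAT and the variant CTTTGTT, taken from the TCF/LEF consensus and searched on both strands.
Nkd1: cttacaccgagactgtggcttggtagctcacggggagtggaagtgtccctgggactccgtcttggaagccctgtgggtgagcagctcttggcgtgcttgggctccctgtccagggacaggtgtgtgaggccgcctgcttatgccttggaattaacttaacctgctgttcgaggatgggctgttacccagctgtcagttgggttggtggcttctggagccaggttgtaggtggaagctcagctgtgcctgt
Nkd2: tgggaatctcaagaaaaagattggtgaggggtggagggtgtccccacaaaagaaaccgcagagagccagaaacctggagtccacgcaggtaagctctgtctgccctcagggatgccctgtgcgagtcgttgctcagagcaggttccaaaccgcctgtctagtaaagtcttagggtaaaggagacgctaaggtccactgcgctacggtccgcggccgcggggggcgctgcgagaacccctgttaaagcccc
Dkk1: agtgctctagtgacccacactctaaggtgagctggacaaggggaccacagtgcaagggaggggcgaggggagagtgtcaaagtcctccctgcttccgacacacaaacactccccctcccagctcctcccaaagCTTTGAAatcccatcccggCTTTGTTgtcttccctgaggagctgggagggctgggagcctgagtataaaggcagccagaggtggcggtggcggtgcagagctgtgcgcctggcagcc
The Dkk1 stretch holds CTTTGAA 117 bases and CTTTGTT 98 bases before its start, and the Nkd1 and Nkd2 stretches hold none of these letters. The same stretch of Axin2, the readout gene above, is not shown and holds none either. Promoter windows were matched for 39 of the 57 members, and 5 of them (12.8%) held at least 1 of the 3 motifs, beside 13.7% of the 27025 genes with a window. Of the 8 called members with a window 0 held one. A match only says that the letters are there, and distal elements were not searched.

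Among the secreted antagonists 2 of 9 were lower in KO and 0 higher, or 22.2% called, beside 17.6% of all tested genes called and 8.48% lower, while on unscaled total counts Wif1 (0.48) and Dkk3 (0.60) passed as higher. SFRP2, a secreted Frizzled-related protein of fibroblasts that binds Wnt ligands, was the most abundant of them, with Sfrp2 at 7.17, 8.29 and 7.10 CPM in KO 1 to 3, against 12.5, 9.07 and 9.98 CPM in WT 1 to 3. KO 2 and WT 2 lay close, but the groups did not overlap. The mean was 7.75 ± 0.823 CPM in KO, against 11.1 ± 2.11 CPM in WT (mean ± SD, n = 2 each), a log2 fold change of -0.51 with an SE of 0.15 (edgeR FDR 0.0307). The call was lost without KO 2 (edgeR FDR 0.105), without WT 1 (-0.31, 0.169), without WT 3 (0.0521) and in the DESeq2 Wald test (0.104), and the sign turned on total counts with no scaling factor (0.03).

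Sfrp5, an adipokine of the same family, had 2.57, 3.03 and 2.60 CPM in KO 1 to 3, against 4.46, 3.84 and 3.85 CPM in WT 1 to 3. The KO libraries were all lower. The log2 fold change was -0.57 (SE 0.18, edgeR FDR 0.0433), a weak call that was lost in the DESeq2 Wald test (FDR 0.207) and whichever library was left out (edgeR FDR 0.052 to 0.145).

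The other 7 tested antagonists were not called. Wif1, which binds Wnt ligands directly, had 6.04, 6.94 and 6.30 CPM in KO 1 to 3, against 7.97, 5.02 and 6.45 CPM in WT 1 to 3, with full overlap (log2 fold change -0.06, 95% interval -0.42 to 0.30, edgeR FDR 0.861). Sfrp1 and Sfrp4, which also bind Wnt ligands, differed by -0.09 and -0.15 (edgeR FDR 0.816 and 0.651). Dkk1, which blocks LRP5 and LRP6, had 13, 31 and 17 counts in KO 1 to 3, against 12, 13 and 16 in WT 1 to 3 (log2 fold change 0.07, 95% interval -0.93 to 1.06, edgeR FDR 0.947). Dkk2 and the divergent family member Dkk3 differed by -0.19 and 0.04 (edgeR FDR 0.695 and 0.905). Notum, an enzyme that strips the lipid from Wnt ligands, had 5, 13 and 23 counts in KO 1 to 3, against 8, 13 and 14 in WT 1 to 3 (edgeR FDR 0.692).

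Wnt ligands were low throughout, and 1 of the 11 tested was called, or 9.09%, beside 17.6% of all tested genes. The summed level of all 18 listed ligands was 8.76 ± 0.0727 CPM in KO, against 9.25 ± 1.09 CPM in WT (mean ± SD, n = 2 each). Per kilobase of longest transcript Wnt6 was the highest, at 0.679 CPM per kilobase in KO and 0.497 in WT, and Wnt4 next, at 0.514 in KO and 0.492 in WT. Wnt4 had the most counts, with 2.06, 1.94 and 2.63 CPM in KO 1 to 3, against 1.80, 2.14 and 2.45 CPM in WT 1 to 3, and did not differ beyond its spread (log2 fold change 0.06, 95% interval -0.41 to 0.53, edgeR FDR 0.903). Wnt5a, the main ligand of the beta-catenin-independent branch, had 1.105, 1.14 and 1.11 CPM in KO 1 to 3, against 1.67, 2.09 and 1.71 CPM in WT 1 to 3. Its groups did not overlap, but its difference of -0.67 did not pass (edgeR FDR 0.0759), except with the 6 libraries kept apart (edgeR FDR 0.0268).

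Wnt7a, a ligand known in limb patterning and muscle stem cells, passed as lower on very few counts. It had 6, 2 and 0 counts in KO 1 to 3, against 11, 9 and 4 in WT 1 to 3. Such counts are few, and the KO group had 8 in all against 24 in the WT group. Like Wnt10b below, Wnt7a passed the filter on low counts through WT alone and so had to differ. Of the alternative settings, 8 kept Wnt7a in the test and 4 of these called it. The log2 fold change was -2.22 (SE 0.70, edgeR FDR 0.0445), and the call was lost without KO 2 (edgeR FDR 0.337), without WT 1 (0.177), with no filter (0.101) and in the DESeq2 Wald test (0.173). Wnt10b, a ligand known to promote bone formation, had 5, 4 and 8 counts in KO 1 to 3, against 10, 10 and 14 in WT 1 to 3 (log2 fold change -1.62, edgeR FDR 0.0719, and -1.91 without KO 3, edgeR FDR 0.043).

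The other tested ligands had edgeR FDR values of 0.315 to 0.778. Of these Wnt3a and Wnt11 had negative log2 fold changes (-0.82 and -0.52), and Wnt7b, Wnt9a, Wnt6, Wnt10a and Wnt5b positive ones of 0.22 to 0.76. Wnt1, Wnt2, Wnt2b, Wnt3, Wnt8b, Wnt9b and Wnt16 had at most 11 counts in a library and were not tested. Among them Wnt9b, a ligand of facial and kidney development, had 2, 2 and 5 counts in KO 1 to 3 and 0 in all WT libraries, and Wnt16, a ligand of cortical bone, had 2, 5 and 2 counts in KO 1 to 3, against 8, 4 and 5 in WT 1 to 3.

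Of the 4 TCF/LEF factors 0 were called by edgeR, beside 17.6% of all tested genes. Of them 0 had an unadjusted p under 0.05, and 0 were called by the DESeq2 Wald test. Over so few genes, 0 calls cannot be set apart from the share of all genes. Tcf7l1, which mostly represses targets, was the most abundant, with 4.50, 5.02 and 4.07 CPM in KO 1 to 3, against 5.65, 4.41 and 4.39 CPM in WT 1 to 3. These ranges overlapped (log2 fold change -0.11, 95% interval -0.48 to 0.27, edgeR FDR 0.742). Tcf7l2, which binds beta-catenin in many adult tissues, averaged 3.19 ± 0.836 CPM in KO, against 3.24 ± 0.655 CPM in WT (mean ± SD, n = 2 each), a difference of -0.02 (edgeR FDR 0.97). Tcf7 differed by -0.48 (edgeR FDR 0.239) with all KO libraries below WT, and Lef1 by 0.29 (edgeR FDR 0.752) on 6 to 18 counts per library.

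Per kilobase of longest transcript, the order of levels after Ctnnb1 was Sfrp2 (3.87 CPM per kilobase in KO, 5.54 in WT), Fzd4 (3.36 in KO, 1.97 in WT), Wif1 (2.87 in KO, 3.01 in WT) and Lrp5 (2.18 in KO, 0.930 in WT) by the KO mean. In WT Sfrp5, at 2.20 CPM per kilobase, stood above both Fzd4 and Lrp5. The order between Fzd4 and its neighbours is within the spread of Fzd4.

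Beyond the family, other genes of the pathway were taken from lists written from knowledge of the pathway. Among secreted modulators outside the family rule, 3 of the 4 tested were lower and 0 higher, beside 8.48% of all tested genes lower. Their median log2 fold change was -1.60, beside -0.01 over all tested genes. Of the 3 that passed the filter in both groups 2 were lower, with a median of -0.93. Frzb, the secreted Frizzled-related protein of cartilage, had 1.34, 0.995 and 1.34 CPM in KO 1 to 3, against 5.93, 5.98 and 5.40 CPM in WT 1 to 3. No KO library came near the WT range. It was 4.84-fold lower in KO (log2 fold change -2.28, SE 0.19, edgeR FDR 3.24e-06) and passed under each of its 14 alternative settings.

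Sostdc1, an antagonist of Wnt and BMP signals known in tooth patterning, averaged 0.950 ± 0.00346 CPM in KO, against 1.82 ± 0.181 CPM in WT (mean ± SD, n = 2 each; log2 fold change -0.93, edgeR FDR 0.0216). The call was lost without KO 2 (edgeR FDR 0.129), without WT 1 (0.0821) and in the DESeq2 Wald test (0.118). Ndp encodes norrin, which activates FZD4 and is no antagonist although it stood in this list, and it passed the filter on low counts through WT alone and so had to differ. It had 9, 2 and 0 counts in KO 1 to 3, against 19, 8 and 17 in WT 1 to 3 (log2 fold change -2.66, edgeR FDR 0.00675, -2.30 without KO 2 at edgeR FDR 0.0886, and -4.39 without KO 1). Sost, the sclerostin gene of osteocytes, was not called (-0.42, edgeR FDR 0.376, and 0.14 on unscaled total counts).

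Reported Wnt target genes outside the family split. Of 15 tested, 4 were lower and 2 higher, or 40% against 17.6% of all tested genes, with a median log2 fold change of -0.50, a share that was not tested. Ccnd1, the cell-cycle gene of cyclin D1, had 6.60, 8.01 and 7.61 CPM in KO 1 to 3, against 16.6, 17.0 and 17.8 CPM in WT 1 to 3. The groups were widely apart (log2 fold change -1.18, SE 0.12, edgeR FDR 1.58e-05). Runx2, the osteoblast commitment factor, averaged 1.43 ± 0.0388 CPM in KO, against 3.79 ± 0.595 CPM in WT (mean ± SD, n = 2 each, log2 fold change -1.39, edgeR FDR 0.000318). Cd44, a hyaluronan receptor, had -0.96 (edgeR FDR 0.00154). Ccn2, a matrix protein gene also driven by other pathways, was higher, with 19.8 ± 0.999 CPM in KO, against 12.4 ± 0.172 CPM in WT (mean ± SD, n = 2 each, log2 fold change 0.67, edgeR FDR 0.000919). These 4 genes passed in each of their 14 alternative settings, and all but Cd44 (edgeR FDR 0.0592) did so on unscaled total counts. Bmp4, a bone morphogenetic protein gene, was also higher (0.64, edgeR FDR 0.0119) and Ccn1, a matrix protein gene like Ccn2, lower (-0.55, edgeR FDR 0.0205). Bmp4 was lost without KO 2 (edgeR FDR 0.177), and Ccn1 without KO 2, WT 1 or WT 2 (edgeR FDR 0.0951, 0.112 and 0.0624), in the DESeq2 Wald test (0.0844) and on unscaled total counts (log2 fold change -0.0058, edgeR FDR 0.979).

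In the destruction complex and its transducers 1 of 17 tested genes was called, Dvl1, a Dishevelled scaffold (log2 fold change 0.37, edgeR FDR 0.0424, lost without KO 1, KO 2 or WT 2 at edgeR FDR 0.0511, 0.423 and 0.0743 and in the DESeq2 Wald test at 0.12). The called share of this list was 5.88%, beside 17.6% of all tested genes. The kinase gene Csnk1e (0.34, edgeR FDR 0.0885), the phosphatase subunit gene Ppp2r5a (0.21, 0.251) and the tankyrase gene Tnks (0.59, 0.255) came next and did not pass. Among nuclear cofactors 2 of 13 were called, both higher: Med12, a Mediator subunit (0.59, edgeR FDR 0.00955, lost without KO 2 at edgeR FDR 0.0815), and the corepressor Tle4 (0.62, edgeR FDR 0.0263, lost without KO 2, WT 1 or WT 2 at edgeR FDR 0.218, 0.0874 and 0.09 and in the DESeq2 Wald test at 0.109). The called share of the cofactors was 15.4%, beside 17.6% of all tested genes. The corepressor Tle3 (-0.46, edgeR FDR 0.0667) passed without WT 3 (edgeR FDR 0.0348), and Ctnnbip1, an inhibitor of beta-catenin, had 0.31 (edgeR FDR 0.0796). With the 6 libraries kept apart 5 of the cofactors passed. Of 14 tested genes for Wnt secretion and surface modulation 0 were called by edgeR, with 3 at an unadjusted p under 0.05, and 0 by the DESeq2 Wald test. With the 6 libraries kept apart 2 passed, Apcdd1, a membrane inhibitor of Wnt (edgeR FDR 0.0222), and Tmed5, a cargo receptor of the early secretory path (edgeR FDR 0.0422). The genes of smallest p were Apcdd1 (-0.75, edgeR FDR 0.0755), Tmed5 (0.37, 0.0794), Porcn, the acyltransferase that lipidates Wnt ligands (0.67, 0.122), and the glypican Gpc6 (0.78, 0.188).

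In the beta-catenin-independent branch 4 of 16 tested genes were called, or 25%, beside 17.6% of all tested genes, and 3 of the 15 that passed the filter in both groups. The planar polarity genes Prickle1 and Prickle2 (log2 fold changes -0.69 and -0.66, edgeR FDR 0.00711 and 0.0269) and the formin Daam2 (-0.60, edgeR FDR 0.0115) were lower. Without KO 2 none of these passed (edgeR FDR 0.107 for Prickle1, 0.134 for Prickle2, 0.0999 for Daam2), Daam2 was also lost without WT 1 (edgeR FDR 0.0617) and Prickle2 without WT 2 (edgeR FDR 0.0779). In the DESeq2 Wald test Daam2 (FDR 0.0524) and Prickle2 (0.154) were lost, and on unscaled total counts Prickle1 (-0.14, edgeR FDR 0.512), Prickle2 (-0.10, 0.675) and Daam2 (-0.06, 0.79) did not pass. Celsr3, a polarity cadherin of neurons, passed the filter through KO alone and so had to differ. It had 15, 29 and 14 counts in KO 1 to 3, against 0, 2 and 3 in WT 1 to 3 (log2 fold change 2.99, edgeR FDR 0.0186, and 2.55 without KO 2, edgeR FDR 0.228).

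**Figure D5:**
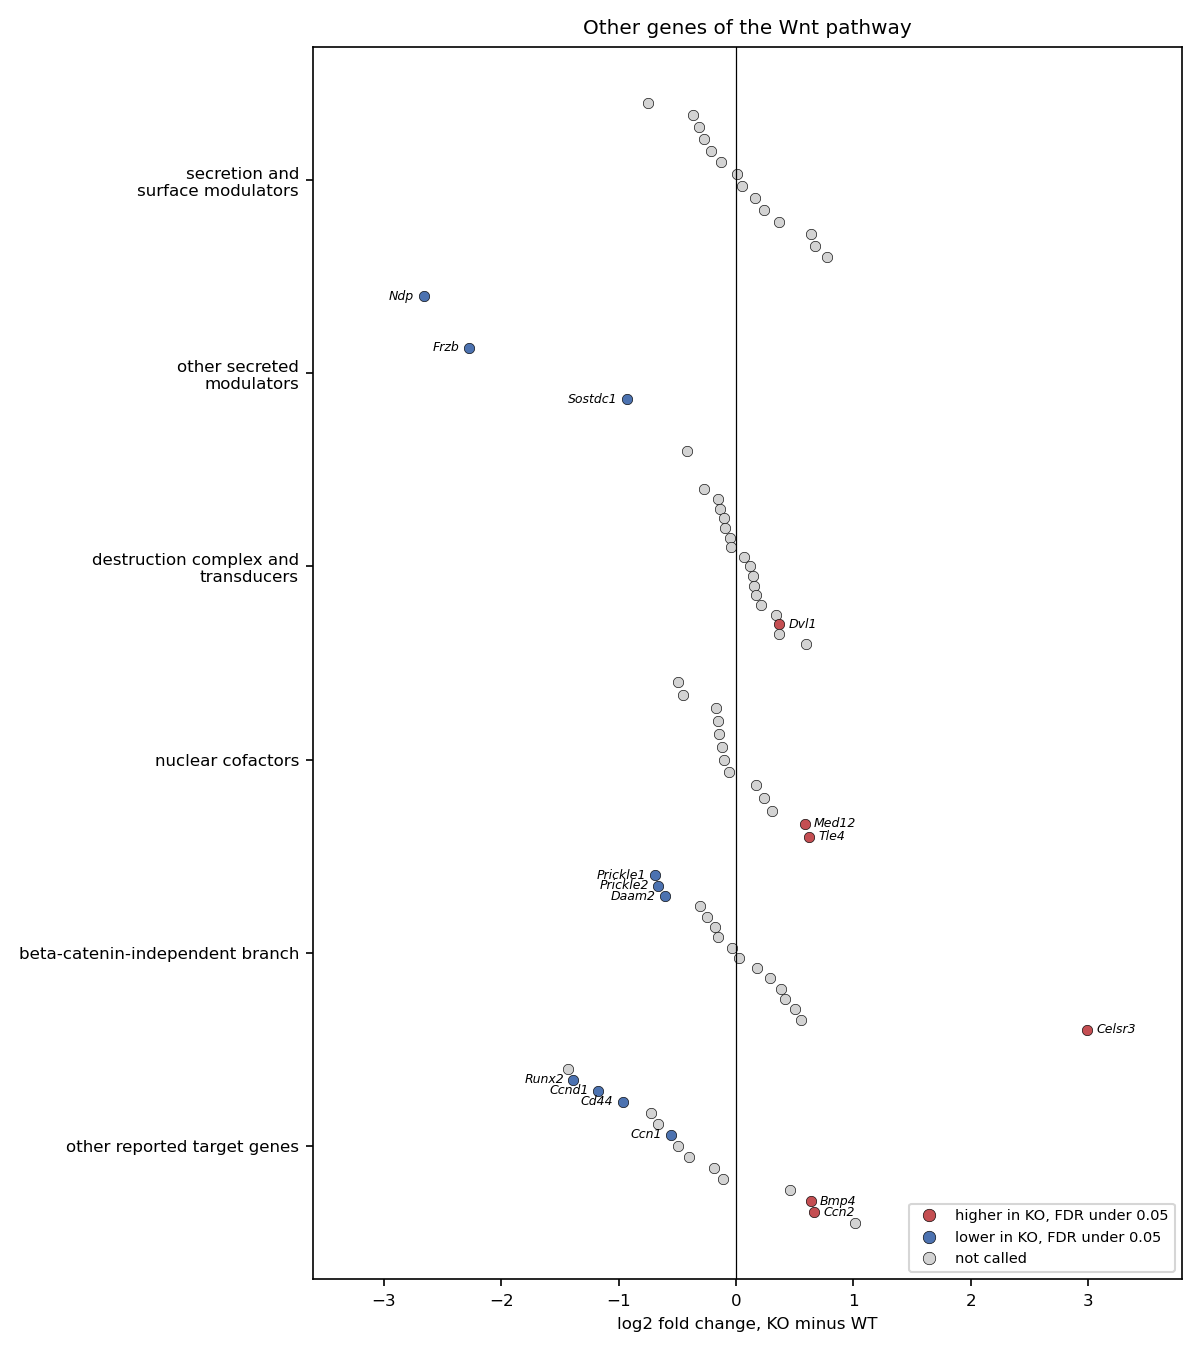
Log2 fold change (KO minus WT, x axis) of each tested gene in the 6 lists of other pathway genes, with called genes named and in red (higher in KO) or blue (lower in KO). Frzb at -2.28 and Ndp at -2.66 lie farthest to the left and Celsr3 at 2.99 farthest to the right.

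Markers of several cell types differed between the same libraries. Their counts are to be read beside 9.15% of all tested genes called higher in KO and 8.48% lower. Neuronal markers were higher, 8 of 8, with summed levels of 37.2 and 41.5 CPM in the KO samples and 6.77 and 8.55 CPM in the WT samples, and 6 of 6 without Nefm and Nefh, which passed the filter through KO alone. Salivary gland markers were higher, 6 of 6, at 412 and 402 CPM in KO and 25.8 and 24.9 CPM in WT, and 4 of 4 without Prol1 and Aqp5, which passed through KO alone. Both lists lay far above their WT sums in each KO sample. Macrophage markers were lower, 5 of 5, at 20.6 and 19.2 CPM in KO and 42.0 and 34.6 CPM in WT. Olfactory and nasal markers were lower in 6 of 7, at 3.85 and 3.00 CPM in KO and 26.8 and 29.0 CPM in WT.

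Tooth markers moved as well: 4 of 6 odontoblast and ameloblast genes were lower and 1, the dentin gene Dspp, was higher, with sums of 557 and 537 CPM in KO and 1622 and 1531 CPM in WT. Osteoblast and osteocyte markers had 3 of 7 higher (log2 fold changes of Phex 2.03, Bglap 1.61 and Col1a1 1.11). The other 4 were not called and had negative values (Dmp1 -0.68, Ibsp -0.31, Alpl -0.15 and Sp7 -0.06). The sums were 577 and 640 CPM in KO and 315 and 276 CPM in WT, most of it Col1a1 (528 CPM in KO, 245 CPM in WT). Skeletal muscle had 2 of 6 higher, at 5830 and 5119 CPM in KO and 3501 and 4693 CPM in WT. KO 2 and WT 2+3 came closest there. Synovial and fibroblast markers had 2 of 6 higher, at 191 and 205 CPM in KO and 180 and 164 CPM in WT, led by Dcn (109 CPM in KO, 119 CPM in WT). Endothelial markers had 1 higher and 2 lower of 5, at 235 and 248 CPM in KO and 210 and 200.5 CPM in WT, led by Cdh5 (79.2 CPM in KO, 61.7 CPM in WT). Adipocyte markers had 2 of 4 lower, at 360.5 and 292 CPM in KO and 288 and 430 CPM in WT, led by Fabp4 (319 CPM in KO, 338 CPM in WT). The adipocyte sums of the groups overlapped, and most of each sum was Fabp4 (log2 fold change -0.08). The lower genes were Adipoq (-1.88) and Cfd (-1.47), and Plin1 (-1.16) was not called. Keratinocyte markers had 1 of 5 lower, at 14.7 and 14.1 CPM in KO and 17.4 and 17.3 CPM in WT, led by Krt5 (5.78 CPM in KO, 8.13 CPM in WT). Chondrocyte markers, led by Comp (6.02 CPM in KO, 7.09 CPM in WT), had 0 of 5 called by edgeR and 0 at an unadjusted p under 0.05, at 10.6 and 12.1 CPM in KO and 14.1 and 12.5 CPM in WT.

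The leading genes of these lists that moved in 1 direction were Stmn2 for neurons (9.76 CPM in KO, 2.60 CPM in WT), Bpifa2 for salivary gland (266 CPM in KO, 21.2 CPM in WT), C1qa for macrophages (7.53 CPM in KO, 11.8 CPM in WT) and Obp2a for nasal mucosa (0.620 CPM in KO, 7.34 CPM in WT). Of the neuronal markers Nefm and Nefh, of the salivary ones Prol1 and of the adipocyte ones Lep were at 0 in at least 1 library. The part of these shifts in the Wnt results was not tested.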

How the data were processed

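Bulk mRNA sequencing of 3 KO and 3 WT libraries was used. The authors deposited whole-number read counts per gene symbol, not normalized. Per the submitters' processing notes, HISAT2 2.1.0, StringTie 2.1.5 and the build mm39 were used. The sources used here do not give the annotation, strand setting or rule for shared reads, so reads of overlapping genes cannot be told apart. Among members, 12 of 57 have exons that overlap another gene in GENCODE M21. The table appears to count both mates of a pair, so intervals are taken on pairs at 2 counts each and cover counting error only.

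Libraries that differed within sampling noise (median variance ratio under 1.1 at 2 counts per read pair) were summed. Counts were filtered (filterByExpr, minimum count 10), scaled by TMM and fitted with the quasi-likelihood test of edgeR 4.0.16 (R 4.3.3, limma 3.58.1). P-values were adjusted over all 14632 tested genes and called at FDR under 0.05. The fit was run on simulated data with the same dispersion for every gene. Changes were set there only in genes of higher counts, so the simulation does not cover the low members. Alternatives were 6 separate libraries, a replicate block, DESeq2 1.42.0 size factors and Wald test, limma-voom, other filters, no mitochondrial genes, each library left out and, added after seeing the data, unscaled total counts.

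The members, lists and tests were chosen with earlier results of these data known. Values in every library are given for called members, the member of most counts in each role, Lrp5, Lrp6, Ctnnb1 and Axin2, with others by range, and from each pathway list up to 4 genes of smallest p and the called genes. A few uncalled members were named after their values were seen. A cell type list is not reported here. Promoters are RefSeq windows of GRCm38.p6, of which 250 bases before the start were used. Files and reference differ in build, so no other coordinates are given.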

Additional observations from a re-analysis of the deposited data

How the results depend on the processing

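Lrp5, Nkd1, Frzb, Ccnd1, Runx2, Ccn2 and Cd44 passed in each of their 14 alternative settings. Over all genes 2580 were called, 1634 by the DESeq2 Wald test, 1149 (without KO 2) to 2434 with 1 library left out, and 7734 on unscaled total counts. Members called numbered 6 by the DESeq2 Wald test (2 higher, 4 lower) and 3 to 11 with 1 library left out (higher 2 to 5, lower 1 to 6). Without WT 1 there were 5 (3 higher, 2 lower). Unscaled total counts called 13 members higher and 1, Rspo1, lower, with 95% of all calls higher, against 51.9% after TMM scaling. That setting moved the median of all genes to 0.54 and turned the sign of Sfrp2 (0.029), Ctnnb1 (0.12), Lrp6 (0.27), Axin2 (0.44), Tcf7l1 (0.44), Sost (0.14) and Tle3 (0.090). Further uncalled members turned from negative to positive as well, among them Sfrp1 (0.47), Fzd8 (0.53), Lgr4 (0.52) and Tcf7l2 (0.54). There Nkd1 (-0.45, edgeR FDR 0.114), Nkd2 (-0.63, 0.072), Sfrp5 (-0.02, 0.948) and Wnt7a (-1.68, 0.0654) did not pass. With 1 library left out, Wnt4 ran from -0.076 (without WT 1) to 0.18 and was at -0.06 without KO 3, Tcf7l1 reached 0.083 and Axin2 ran from -0.22 to 0.30 (both highest without WT 1). Without KO 2 or WT 1 that group is 1 sample, assumed to vary like the other group. The other causes were not tested.

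Same-numbered libraries correlated at -0.217, -0.303 and 0.221 in their deviations from the group means over 4962 genes. Deviations within a group depend on each other, so these values cannot show whether a number marks a shared batch. KO 2 correlated best with WT 1 (0.432), not with its own number. With 6 separate libraries 3452 genes and 12 members were called, and with a replicate block as well 2941 genes and 11 members, 4 higher and 7 lower, of which 10 were among the 11 called members. Depth limits the low members: Wnt7a, Wnt10b and Rspo2 had group sums of 8 to 58 counts among KO libraries and of 4 to 34 among WT libraries.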
